A study of Mus musculus with 4 samples.

Results

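The rows of the gene tables were followed, those of the immediate early genes Fos, Fosb, Jun, Junb, Jund, Egr1, Ier2, Ier3 and Zfp36, which are 9 of 31053 genes and were chosen by symbol. The data are single-cell RNA-seq counts of pancreatic islets from mice labeled C57BL/6 (C57BL6/J in the study's methods), cultured ex vivo and divided into 4 libraries. The first library was untreated. The second had 6 h of interleukin-1β (IL-1β), the third 6 h of interferon-γ (IFN-γ), and the last 6 h of both cytokines. All 4 came from the same pool of male mouse islets, and in all 4 the islets were taken apart with EDTA and trypsin after the treatment. Each condition is 1 library. There is no replicate check, and intervals below cover counting error only.

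Immediate early genes are transcribed within minutes of a stimulus, from promoters that need no new protein synthesis, and their transcripts are mostly short-lived. The Fos and Jun proteins pair to form AP-1, a transcription factor driven by growth factors, cytokines, stress and, in islet cells, depolarization and calcium entry. The same genes respond to the enzymes, cooling and shaking used to prepare single cells, so in dissociated tissue their level reflects both the state of the tissue and its preparation.

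The 9 genes share a compact structure that the choice by symbol did not use. In the GENCODE vM21 annotation of mm10, their median gene length was 3384 bases, against 17363 for all 21864 protein-coding genes. Jun, Junb, Jund and Ier2 have 1 exon, which is 44.4% of the members and 7.14% of all coding genes. A 3′ untranslated region with TATTTAT, the core of the AU-rich element that Zfp36 protein binds on unstable transcripts, was present in 6 of the 9 (66.7%) and in 25.5% of the 20636 genes with such a region. The longer TTATTTATT was present in Fos and Zfp36, 22.2% of the members, and in 6.92% of all genes. Ier3 holds 4 copies of TATTTAT, Zfp36 3 and Fos 2, on the transcribed strand only, and Junb, Egr1 and Ier2 hold none. The lines below give 1 window from each of the 3 genes with the most copies, because their transcripts recur in the results. They are 27 bases long, 5′ to 3′ on the transcribed strand, with TATTTAT in capitals, from chr17:35822486-35822512 (plus strand, Ier3), chr7:28376959-28376985 (minus strand, Zfp36) and chr12:85477104-85477130 (plus strand, Fos).
Ier3: aattaaTATTTATgTATTTATgtatat
Zfp36: ttTATTTATgacgacttTATTTATtgt
Fos: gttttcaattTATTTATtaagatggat

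Promoters from RefSeq (GRCm38.p6) were matched for 7 of the 9 genes, all but Egr1 and Ier2. The sequences of Fos, Junb and Ier3 are shown as examples of different orders of the libraries in β-like cells, Fos being highest after IFN-γ, Junb high in both libraries with IL-1β and Ier3 highest after IL-1β alone, and each ends before the start of the transcript. Fos is at chr12:85473640-85473889 (plus strand), Junb at chr8:84978749-84978998 (minus strand) and Ier3 at chr17:35821463-35821683 (plus strand). Capitals mark matches, on either strand, to TGACG (the core of the CREB site), to the κB site of NF-κB and to the TATA box TATAAA.
Fos: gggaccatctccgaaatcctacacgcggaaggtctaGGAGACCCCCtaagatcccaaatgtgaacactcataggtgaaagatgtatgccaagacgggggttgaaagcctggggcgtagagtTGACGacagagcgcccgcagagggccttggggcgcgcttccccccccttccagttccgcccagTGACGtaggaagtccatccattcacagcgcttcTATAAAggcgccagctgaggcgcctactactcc
Junb: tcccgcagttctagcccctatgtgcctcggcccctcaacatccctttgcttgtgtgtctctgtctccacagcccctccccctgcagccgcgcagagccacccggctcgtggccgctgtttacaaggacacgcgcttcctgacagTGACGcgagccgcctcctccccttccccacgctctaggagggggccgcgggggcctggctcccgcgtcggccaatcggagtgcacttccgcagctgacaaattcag
Ier3: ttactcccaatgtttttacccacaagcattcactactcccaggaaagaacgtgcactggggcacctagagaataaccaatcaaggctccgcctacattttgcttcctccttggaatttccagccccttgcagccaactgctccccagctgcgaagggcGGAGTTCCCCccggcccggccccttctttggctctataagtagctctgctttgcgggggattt
In Fos, TGACG lies at -129 to -125 and at -66 to -62 from the start, a κB match at -214 to -205 and TATAAA at -33 to -28. Junb has TGACG at -106 to -102. Ier3 has a κB match at -92 to -83 from the RefSeq start. Its printed sequence has 221 bases and stops at -30, because 29 bases of the window lie in an annotated exon. Over the 250 bases before the start, 17.8% of all 32851 RefSeq promoters hold TGACG, 5.93% a κB match and 12.4% TATAAA. The AP-1 site TGANTCA (6.75% of promoters) and the palindromic site TGACGTCA (1.55%) matched in none of the 7 members. A CArG box, the site of serum response factor, was in 1.47% of all promoters and, of the 7, in Zfp36, whose 250-base window lies wholly within an annotated exon, since the GENCODE gene starts upstream of the RefSeq start. Fosb holds both TGACG and a κB match. These matches are letters in a window and were not tested for binding.

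Filters left 7471 of 12571 barcodes, those with between 200 and 4000 genes and no more than 12% mitochondrial UMIs. A unique molecular identifier (UMI) marks 1 captured transcript molecule, so a UMI count is a molecule count. The untreated library held 50731370 UMIs, the IL-1β library 20056630, the IFN-γ library 31209339 and the combined library 25716645. Only 16 barcodes occurred in more than 1 library. Cells were assigned by the share of their UMIs taken by a hormone, or by non-endocrine markers. The insulin-rich class, called β-like, had 4877 cells (65.3%), the glucagon-rich α-like class 900, the somatostatin-rich δ-like class 551 and the pancreatic polypeptide-rich PP-like class 142. In β-like cells all 9 β-cell markers were detected in every library, with Ins2 at 160521 to 296177 per 1000000 UMIs. In α-like cells 7 of 7 α-cell markers were detected. In δ-like cells Sst led, while Prg4 and Nrn1 were at 0 in every library. In PP-like cells Ptgfr was at 0 in every library. Cells within 2-fold of the insulin limit that defines the β-like class, on either side of it, numbered 50 untreated, 193 after IL-1β, 142 after IFN-γ and 70 after both, of which 22, 116, 83 and 43 were counted as β-like.

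Levels are counts per 1000000 UMIs (CPM), summed over the cells of a class in a library, with an exact Poisson 95% interval. Each gene is compared with itself across libraries and classes. The β-like sums rested on 20039442 UMIs in untreated cells, 9680364 after IL-1β, 14220207 after IFN-γ and 15585583 after both. With no replicate, a ratio of 2 was used as a rule of size. The 3 treated libraries are all set against the same untreated library, so their ratios share that denominator.

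In β-like cells IL-1β went with a high Ier3, IFN-γ with a high Fosb and Egr1, and the combination with a high Jun and with Fos and Egr1 below the untreated level. Junb was high in both libraries with IL-1β. Zfp36 was at least 2-fold higher in all 3 treated libraries. After IL-1β, 3 of the 9 members were at least 2-fold higher (Fosb, Ier3, Zfp36) and 0 at least 2-fold lower, where 16.4% of the 11719 genes with 20 or more UMIs were at least 2-fold higher and 6.92% at least 2-fold lower. After IFN-γ, 3 of 9 were at least 2-fold higher (Fosb, Egr1, Zfp36) and 0 lower, against 5.71% and 0.899% of 11683 genes. Both of these all-gene shares were larger when every gene with a UMI in both libraries was counted, as given in the last section. After both, 4 of 9 were at least 2-fold higher (Jun, Junb, Ier3, Zfp36) and 0 lower, against 11.7% and 12.8% of 11846 genes. The median log2 ratio of the 9 was 0.96, 0.88 and 0.72 in the 3 comparisons. Over all genes it was 0.33, 0.30 and -0.01, so the single-cytokine ratios sit on a general upward shift in β-like cells. The insulin transcripts, which take a large part of the UMIs, moved with that shift. Ins2 was at 296177 CPM in untreated cells, 160521 after IL-1β, 200321 after IFN-γ and 251451 after both. With hormone genes left out of the totals, the all-gene medians were -0.12, -0.03 and -0.25, and Fosb after IL-1β (1.64), Egr1 (1.89) and Zfp36 (1.72) after IFN-γ and Junb after both (1.81) were no longer past 2-fold. Size factors likewise left Fosb after IL-1β (1.72) and Egr1 (1.92) and Zfp36 (1.74) after IFN-γ under 2-fold, and Fosb after IL-1β was 1.78 as an unweighted mean over cells. Measured against the median gene, the members past 2-fold were Ier3 and Zfp36 after IL-1β, Fosb after IFN-γ, and the same 4 genes after both.

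**Figure D1:**
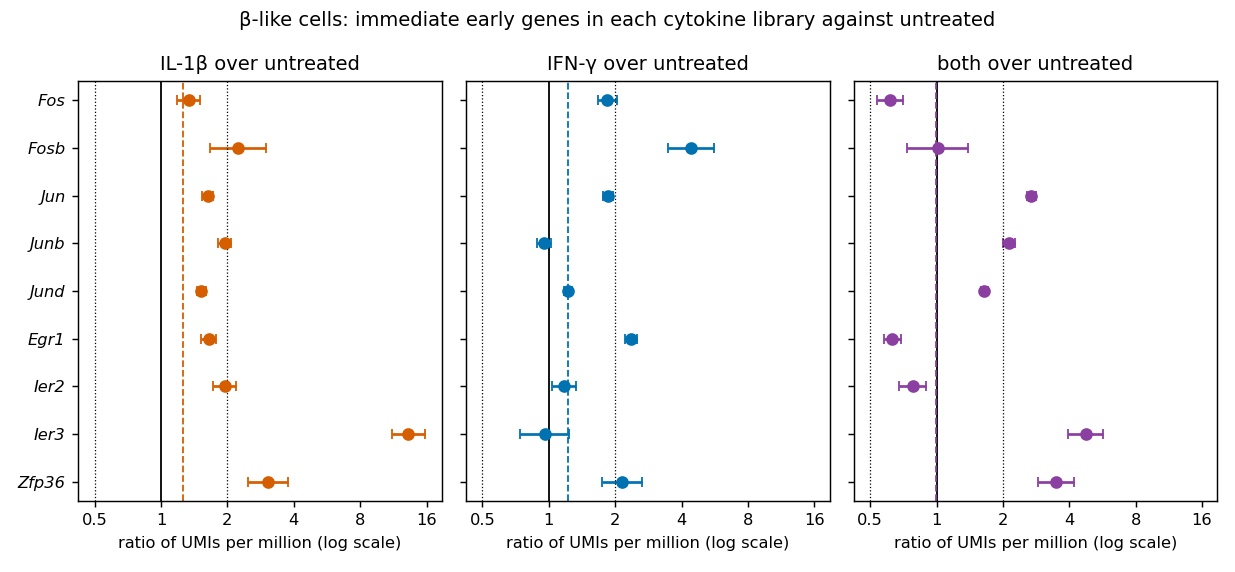
Ratio of each immediate early gene in β-like cells of a treated library to the untreated library, on a log axis, with exact 95% counting intervals and 1 panel per treatment. The solid line is a ratio of 1, the dotted lines are 2-fold, and the dashed line is the median ratio of all genes (1.25 after IL-1β, 1.23 after IFN-γ, 0.994 after both). Ier3 stands apart at 13.2 after IL-1β, and Fos, Egr1 and Ier2 lie below 1 after both cytokines and above 1 after either alone, except that without hormone transcripts in the totals Fos after IL-1β is at 0.982 and Ier2 after IFN-γ at 0.938, and with size factors Ier2 after IFN-γ is at 0.953.

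Fos proteins pair with Jun proteins, not with each other, to make AP-1. In β-like cells Fos measured 33.9 CPM (31.4 to 36.5) untreated, 45.2 (41.1 to 49.7) after IL-1β, 62.4 (58.3 to 66.6) after IFN-γ and 20.9 (18.6 to 23.2) after both. None of the 4 intervals overlap, so the order was IFN-γ, IL-1β, untreated, both. The ratio to untreated was 1.84 (1.66 to 2.04) after IFN-γ and 0.615 (0.538 to 0.703) after both. After IL-1β it was 1.34 (1.18 to 1.51), a direction that was lost when hormone transcripts were left out of the totals (0.982). The combination was 2.99-fold below IFN-γ alone. Fosb, a close relative of Fos, measured 4.69 CPM (3.79 to 5.74) untreated, 10.4 (8.50 to 12.7) after IL-1β, 20.7 (18.4 to 23.2) after IFN-γ and 4.75 (3.73 to 5.96) after both. IFN-γ was highest at 4.41-fold (3.48 to 5.62), IL-1β was next at 2.22-fold (1.66 to 2.98), and the untreated and combined levels were not distinguishable. Fosb was 4.35-fold lower after both than after IFN-γ alone.

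Egr1, a zinc-finger factor induced by calcium and growth factor signals in β-cells, followed the order of Fos. Its β-like level was 73.8 CPM (70.0 to 77.6) untreated, 121 (114 to 128) after IL-1β, 174 (167 to 181) after IFN-γ and 46.5 (43.13 to 49.96) after both. The ratio was 2.36 (2.21 to 2.52) after IFN-γ and 0.630 (0.575 to 0.689) after both. Egr1 was 3.75-fold lower with the combination than after IFN-γ and 2.61-fold lower than after IL-1β, so the combined value lay below all 3 other libraries, as it did for Fos. Ier2, a nuclear protein of the immediate early response, measured 26.7 CPM (24.5 to 29.1) untreated, 51.9 (47.4 to 56.6) after IL-1β, 31.3 (28.5 to 34.3) after IFN-γ and 20.8 (18.6 to 23.2) after both. It was highest after IL-1β, at a ratio of 1.94 (1.72 to 2.20), whose interval includes 2 and which was 2.18 after thinning, and lowest after both, at 0.779 (0.676 to 0.896). The untreated and IFN-γ intervals of Ier2 overlap.

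The 3 Jun genes behaved differently from each other and from Fos. Jun, the founding AP-1 partner and a target of the kinase JNK, measured 127 CPM (122 to 132) untreated, 207 (198 to 216) after IL-1β, 235 (227 to 243) after IFN-γ and 342 (333 to 351) after both. No intervals overlap, and the combination was highest at 2.69-fold (2.56 to 2.82). Junb, a Jun relative that often limits Jun activity, measured 89.1 CPM (85.0 to 93.3) untreated, 173 (165 to 182) after IL-1β, 84.7 (80.0 to 89.6) after IFN-γ and 190 (183 to 197) after both. The 2 libraries with IL-1β were high and the 2 without it were low. The ratio of Junb was 1.94 (1.82 to 2.08) after IL-1β, 0.951 (0.883 to 1.02) after IFN-γ and 2.13 (2.01 to 2.26) after both. Jund, the most steadily expressed of the Jun genes, measured 242 CPM untreated, 369 after IL-1β, 296 after IFN-γ and 399 after both. Its ratios of 1.52 (1.46 to 1.59), 1.22 (1.17 to 1.28) and 1.65 (1.59 to 1.71) all stayed under 2-fold, and the IFN-γ ratio was 0.979 with hormone transcripts left out.

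Ier3, which encodes a stress-inducible regulator of survival signaling and a known NF-κB target, had the widest range of the 9. It measured 7.63 CPM (6.47 to 8.95) in untreated β-like cells, 101 (94.9 to 108) after IL-1β, 7.31 (5.98 to 8.86) after IFN-γ and 36.3 (33.3 to 39.4) after both. The untreated and IFN-γ values overlap, and the 2 IL-1β libraries stand above them. The ratio was 13.2 (11.2 to 15.8) after IL-1β, 0.958 (0.739 to 1.24) after IFN-γ and 4.75 (3.96 to 5.71) after both. The combination was 2.79-fold below IL-1β alone. Zfp36 encodes tristetraprolin, which binds AU-rich elements and shortens the life of cytokine and immediate early transcripts. Its level was 7.73 CPM (6.57 to 9.05) untreated, 23.6 (20.6 to 26.8) after IL-1β, 16.6 (14.5 to 18.9) after IFN-γ and 26.9 (24.4 to 29.7) after both. The IL-1β and combined intervals overlap, the other neighbors do not, and the ratios were 3.05 (2.47 to 3.76), 2.15 (1.74 to 2.64) and 3.48 (2.89 to 4.22).

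**Figure D2:**
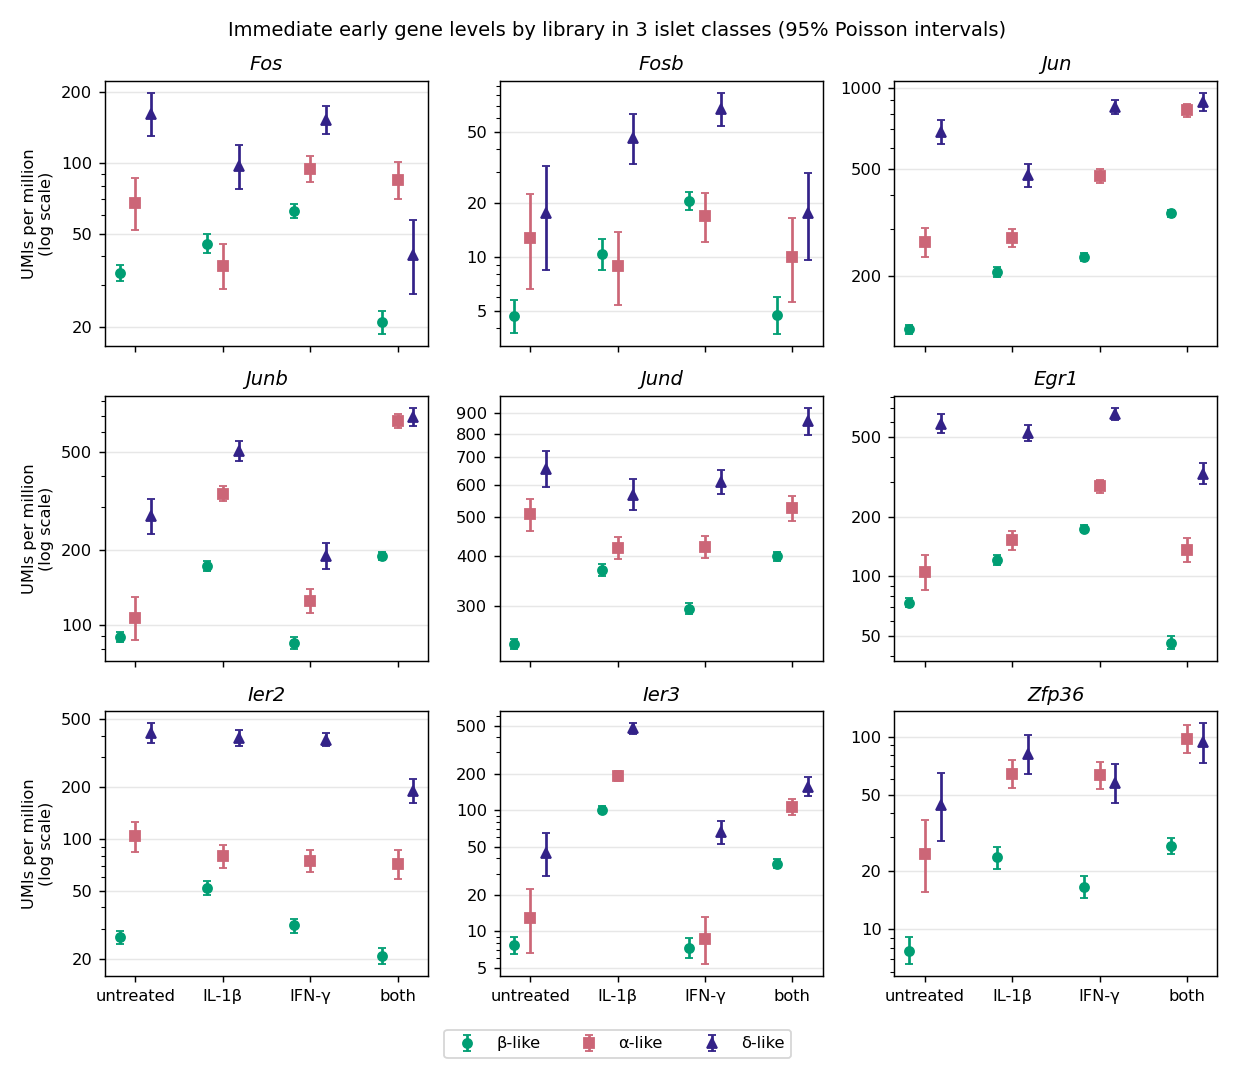
Level of each of the 9 genes in CPM (log axis) in the 4 libraries, for β-like (circles), α-like (squares) and δ-like (triangles) cells. Bars are exact Poisson 95% intervals. Junb and Ier3 are high in the 2 libraries with IL-1β in all 3 classes, and Egr1 is higher in δ-like than in β-like cells in every library.

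Set directly against the single cytokines, the combined library had 0 members at least 2-fold higher than IL-1β alone in β-like cells and 5 at least 2-fold lower, Fos, Fosb, Egr1, Ier2 and Ier3, where 3.1% of all genes were higher and 7.9% lower. Against IFN-γ alone, Junb (2.24-fold) and Ier3 (4.96-fold) were higher and Fos, Fosb and Egr1 lower, where 6.29% of all genes were higher and 15.9% lower. All-gene medians in these 2 comparisons were -0.32 and -0.30 log2. Relative to the median gene, Jun was at least 2-fold higher than after IL-1β and Egr1 and Ier3 at least 2-fold lower. By the same measure Junb, Ier3 and Zfp36 were higher than after IFN-γ, and Fos, Fosb and Egr1 lower.

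Shares of cells were read after each cell was thinned to 4000 UMIs in all, and 37, 74, 50 and 31 shallower β-like cells of the 4 libraries, in the order above, were left out. The thinned total includes insulin transcripts, a median of 41.3% of a β-like cell's UMIs untreated, 20.8% after IL-1β, 27.4% after IFN-γ and 31.8% after both, so the depth left for other genes was not equal and was lowest in untreated cells. An Ier3 UMI was then found in 3.40% of untreated β-like cells, 25.4% after IL-1β, 2.02% after IFN-γ and 11.2% after both. Before thinning the shares were 10.1%, 37.0%, 5.67% and 25.4%, the untreated cells being the deepest with a median of 17094 UMIs, against 8305.5, 11034 and 12196. For Fos the thinned shares were 11.2%, 11.5%, 18.1% and 7.20%, for Egr1 22.0%, 25.2%, 37.5% and 13.3%, and for Junb 23.7%, 44.0%, 24.3% and 47.7%. The Fos share after IL-1β thus lay next to that of untreated cells although the summed level was higher. Jun was found in 33.4%, 40.5%, 46.6% and 63.1% of thinned cells.

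Within each library, Egr1 was found more often in β-like cells with Fos than in those without. Among thinned untreated cells, Egr1 was found in 41.1% (32.5 to 50.1) of those with a Fos UMI and 19.6% (17.2 to 22.2) of those without. The corresponding shares were 58.2% and 20.9% after IL-1β, 57.6% and 33.1% after IFN-γ, and 31.5% and 11.9% after both. For Actb, a cytoskeletal reference, they were 78.3% and 81.6% in untreated cells, and 97.8% and 93.1% after both. For Ier3 the shares in cells with and without Fos had no fixed order. After IL-1β an Ier3 UMI was in 23.0% (15.8 to 31.4) of cells with Fos and 25.7% (22.9 to 28.6) of cells without, and after both in 10.1% and 11.2%. In untreated cells they were 5.43% and 3.14%, and after IFN-γ 0.446% (1 of 224 cells, 0.0113 to 2.46) and 2.37% (1.52 to 3.50). Cells of a library share their preparation, so these shares describe the library and carry no test. The mean number of members detected per thinned β-like cell was 1.66 untreated, 2.45 after IL-1β, 2.15 after IFN-γ and 2.38 after both. Cells with 5 or more members made up 1.57%, 8.74%, 6.39% and 3.80%.

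In α-like cells, the glucagon-producing cells that oppose insulin, the pattern of Junb, Ier3 and Zfp36 recurred and that of Fos did not. After IL-1β, 3 of 9 members were at least 2-fold higher (Junb, Ier3, Zfp36) and 0 lower, where 9.78% of all genes were higher and 6.3% lower. After IFN-γ, 2 were higher (Egr1, Zfp36) and 0 lower, against 6.49% and 1.05%. After both, 8 members had 20 or more UMIs, 4 were higher (Jun, Junb, Ier3, Zfp36) and 0 lower, against 10.8% and 10.7%. Ier3, with 12 UMIs in untreated α-like cells, entered the IL-1β and combined counts only through the treated library, where it was high. Against IL-1β alone, the combined α-like cells had 2 members at least 2-fold higher (Fos, Jun) and 0 lower, where 3.63% and 6.46% of all genes were. Against IFN-γ alone they had 2 higher (Junb, Ier3) and 1 lower (Egr1), where 5.57% and 16.7% were. Relative to the median gene, Fos, Jun and Junb were higher than after IL-1β. By that measure Jun, Junb and Ier3 were higher than after IFN-γ and 0 members lower, so the Egr1 call was lost. The α-like cells numbered 92, 335, 303 and 170 in the 4 libraries. Junb measured 107 CPM (86.9 to 130) untreated, 340 (316 to 364) after IL-1β, 125 (111 to 140) after IFN-γ and 667 (627 to 710) after both. Its combined ratio of 6.25 (5.08 to 7.75) lies above the 2.13 of β-like cells with no overlap of intervals. Ier3 measured 12.8 CPM (6.62 to 22.4), 191 (173 to 210), 8.63 (5.35 to 13.2) and 106 (90.6 to 124), so its combined level was 8.30-fold (4.62 to 16.4) the untreated one. Fos measured 67.3, 36.5, 94.6 and 84.5 CPM in the 4 libraries. After both cytokines its ratio was 1.26 (0.921 to 1.73) in α-like cells, where the interval includes 1, against 0.615 in β-like cells. The stress transcript Hspa1a, an inducible chaperone, moved with these α-like values, at 80.1 CPM untreated, 206 after IL-1β, 85.1 after IFN-γ and 716 after both. Cells with at least 10 Hspa1a UMIs per 10000 were 2 of 92, 21 of 335, 7 of 303 and 51 of 170. Without them the combined ratio was 5.43 for Junb, 8.11 for Ier3 and 2.69 for Jun, and that of Fos fell to 0.903. Hspa1a still differed among the remaining α-like cells, at 10.8 CPM untreated, 27.7 after IL-1β, 15.2 after IFN-γ and 225 after both. The difference between classes was not tested, since each is a sum over 1 library.

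In δ-like cells, which release somatostatin, several members were high before any cytokine. Egr1 in untreated δ-like cells measured 587 CPM, 7.96-fold (7.04 to 8.97) the untreated β-like level, and Ier2 measured 416, 15.6-fold (13.3 to 18.2). Every one of the 9 was higher in untreated δ-like than in untreated β-like cells, from 2.71-fold for Jund. Insulin transcripts, a median of 0.536% of the UMIs of an untreated δ-like cell against the 41.3% of a β-like one, lower the β-like CPM of every other gene. With hormone genes left out of the totals all 9 were still higher in δ-like cells, from 1.82-fold for Jund and 2.07-fold for Junb to 5.34-fold for Egr1 and 10.46-fold for Ier2. Levels above β-like cells were not particular to δ-like cells. In untreated α-like, mesenchymal-like and ductal-like cells all 9 were higher too. The count was 8 in PP-like and endothelial-like, 5 in macrophage-like and 1 in acinar-like cells. Without hormone genes it was 9 in mesenchymal-like and ductal-like, 8 in PP-like and 7 in α-like cells. It was then 6 in endothelial-like, 5 in macrophage-like and 0 in acinar-like cells. Thinned δ-like cells held 4.48 members on average without treatment, against 1.66 in β-like and 2.52 in α-like cells, and 50% (37.0 to 63.0) of them held 5 or more. These cells were thinned to the same total with hormone transcripts included, so more of it was left for other genes in δ-like cells, with a median of 7.05% from Sst, than in β-like cells. The scale of free transcript from lysed β-cells can be read from Ins2. Its level in α-like and δ-like cells was 0.469% to 1.54% of that in β-like cells, and the same share of the β-like level of a member would make up at most 1.28% of its α-like or δ-like value.

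With the cytokines, δ-like cells showed the Ier3 pattern again and a fall in Fos with the combination. After IL-1β, 2 of 9 were at least 2-fold higher (Fosb, Ier3) and 0 lower, against 12% and 7.04% of all genes. After IFN-γ, 1 was higher (Fosb) and 0 lower, against 5.4% and 1.76%. Fosb, with 10 UMIs in untreated δ-like cells, entered both counts only through the treated library, where it was high. After both, 8 members had 20 or more UMIs, 3 were higher (Junb, Ier3, Zfp36) and 2 lower (Fos, Ier2), against 15.1% and 13.6%. Not all of these calls held under other settings. Fosb after IL-1β was 2.63-fold, but 1.33 with no upper gene limit. Zfp36 after both was 2.12-fold, but 1.78 with no upper gene limit, 1.98 without hormone genes in the totals and 1.92 with the stricter hormone rule. Against IL-1β alone, the combination had 0 higher and 4 lower (Fos, Fosb, Ier2, Ier3), where 6.72% and 9.28% of all genes were. Against IFN-γ alone it had 2 higher (Junb, Ier3) and 2 lower (Fos, Fosb), where 8.68% and 15.7% were. Relative to the median gene, Jun was higher than after IL-1β and Fos, Fosb and Ier3 lower, so the Ier2 call was lost. Fosb, with 14 UMIs after both, entered these comparisons only through the single-cytokine libraries, where it was high. Ier3 measured 44.1 CPM (28.5 to 65.0) untreated, 473 (429 to 520) after IL-1β, 65.6 (52.7 to 80.7) after IFN-γ and 156 (130 to 186) after both. Fos measured 162 (131 to 199), 97.1 (77.6 to 120), 153 (133 to 176) and 40.3 (27.6 to 56.9), and the combination was 4.02-fold below untreated. Ier2 measured 416, 389, 380 and 191 CPM, and only the combination stood apart. Summed endothelial markers in δ-like cells were 138 CPM after IL-1β, led by Flt1 at 42.9, against 22.9 untreated, 22.1 after IFN-γ and 18.9 after both. Their part in the δ-like values was not tested. Hspa1a in δ-like cells measured 1.76 CPM (1 UMI) untreated, 308 after IL-1β, 279 after IFN-γ and 1294 after both, and cells with at least 10 Hspa1a UMIs per 10000 were 0 of 69, 11 of 170, 7 of 188 and 46 of 124. Without them the combined ratio was 0.205 for Fos, 4.18 for Ier3, 2.04 for Junb and 0.588 for Ier2, the last no longer past 2-fold, nor with size factors (0.513). Hspa1a still differed among the remaining δ-like cells, at 1.76 CPM untreated, 33.6 after IL-1β, 13.8 after IFN-γ and 213 after both.

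PP-like cells were few (25, 23, 50 and 44). Ier3 in them measured 17.8 CPM (6.54 to 38.8), 514 (412 to 634), 82.0 (58.6 to 112) and 252 (207 to 305), and Junb 142, 333, 213 and 593. Fos measured 47.5, 5.84, 107 and 14.0, the IL-1β value resting on 1 UMI. After IL-1β, 6 members had 20 or more UMIs, 2 were at least 2-fold higher (Junb, Ier3) and 1 lower (Jun), against 16.9% and 6.79% of all genes. Junb was under 2-fold with no upper gene limit (1.97), without hormone genes in the totals (1.80) and with size factors (1.67), and relative to the median gene Ier3 alone was higher and Jun, Egr1 and Ier2 were lower. After IFN-γ, 2 of 7 were higher (Fos, Ier3) and 0 lower, against 11.2% and 1.75%. The Fos ratio of 2.24 was 1.10 with no upper gene limit and 1.40 after thinning, and there too Ier3 alone was past 2-fold relative to the median gene. After both, 3 of 7 were higher (Junb, Ier3, Zfp36) and 1 lower (Egr1), against 19.1% and 8.87%. Untreated PP-like cells held 6 UMIs of Ier3, 4 of Zfp36 and 16 of Fos. Where these genes were counted as higher than untreated, they had entered only through the treated library, so those calls depend on the filter. The combination differed from IL-1β alone by at least 2-fold in Jun (higher) and Ier3 (lower) among 7, where 8.2% of all genes were higher and 7.57% lower. From IFN-γ alone it differed in 3 higher (Junb, Ier3, Zfp36) and 3 lower (Fos, Egr1, Ier2) among 8, where 9.72% and 14.8% were. Relative to the median gene, Jun and Junb were higher than after IL-1β and 0 members lower. Zfp36 (15 UMIs after IFN-γ) and Fos (6 after both) entered the IFN-γ comparison only through the library where they were high. The order of the PP-like Ier3 levels was that of β-like cells except that IFN-γ lay above untreated.

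Outside the endocrine classes the same genes had other baselines. In endothelial-like cells (29, 33, 46 and 22 cells) Ier3 was high throughout, at 2056 CPM untreated, 1734 after IL-1β, 687 after IFN-γ and 1873 after both, and its IFN-γ ratio was 0.334 (0.281 to 0.397). In mesenchymal-like cells (12, 24, 23 and 14) Ier3 measured 2445, 4994, 1100 and 4699, and Junb 1311, 421, 439 and 342, so Junb was lower in all 3 treated libraries. Pdgfra, a defining mesenchymal marker, was at 0 in the IFN-γ and combined libraries of this class. In ductal-like cells (17, 16, 25 and 7) Ier3 measured 979, 991, 712 and 1392. In macrophage-like cells (35, 37, 43 and 30), where Zfp36 restrains inflammatory transcripts, Zfp36 measured 173 CPM (129 to 227) untreated, 234 (173 to 310) after IL-1β, 300 (244 to 365) after IFN-γ and 229 (175 to 294) after both. Ier3 in macrophage-like cells was 46.6, 143, 36.0 and 41.2 CPM, a ratio of 3.08 (1.58 to 6.28) after IL-1β, which was 1.52 as an unweighted mean over cells. The 8 untreated acinar-like cells held 0 UMIs of 6 members.

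**Figure D3:**
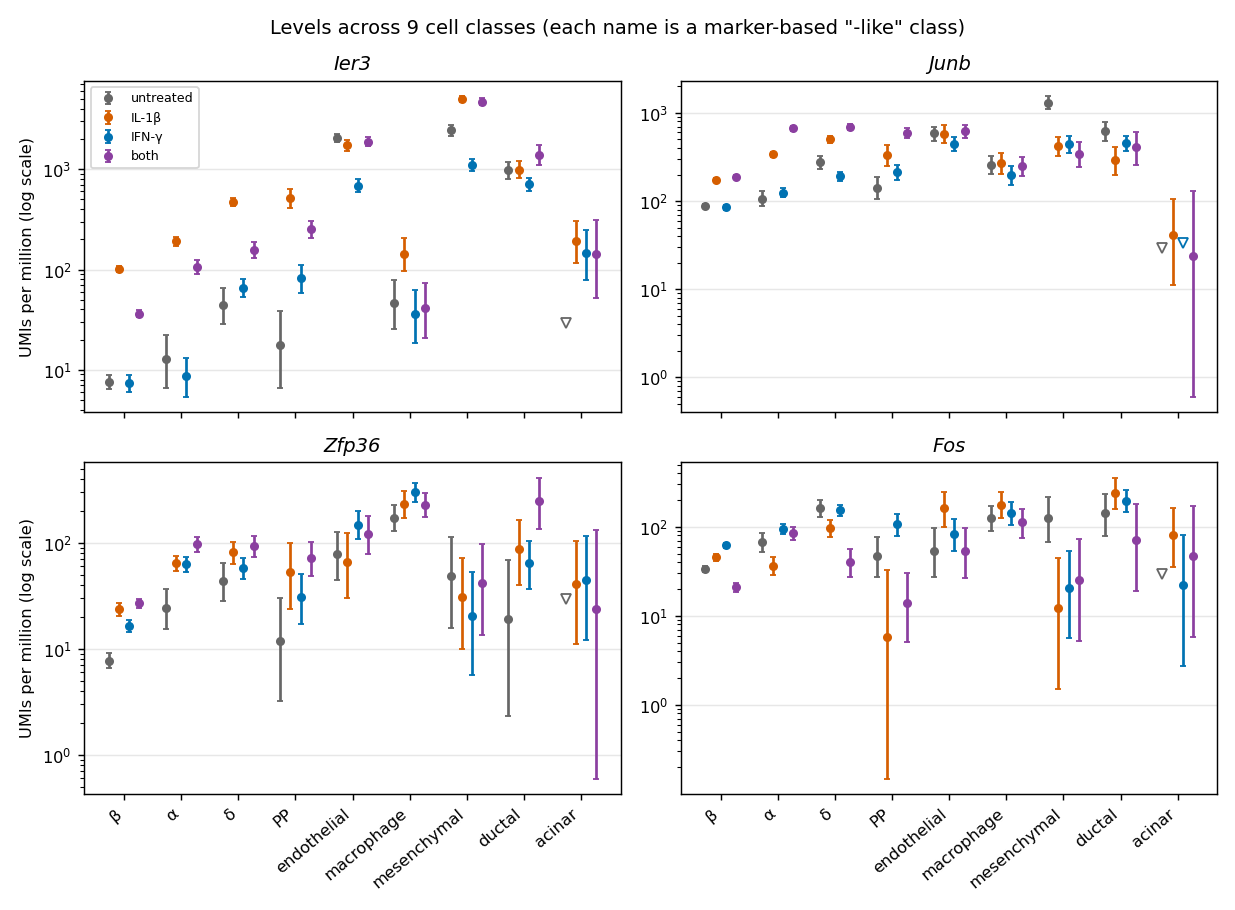
Levels of Ier3, Junb, Zfp36 and Fos in CPM (log axis) across 9 cell classes, with 1 point per library and exact Poisson 95% intervals. Open triangles mark classes with 0 UMIs, drawn at the level of 3 UMIs. Ier3 in the 4 endothelial-like samples lies between 687 and 2056, above all β-like values (7.31 to 101).

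The wider immediate early network in β-like cells was read from fixed lists, chosen with earlier results of these data known. Each count below stands beside the share of all β-like genes given above, 16.4% at least 2-fold higher after IL-1β, 5.71% after IFN-γ and 11.7% after both. The shares lower were 6.92%, 0.899% and 12.8%. Among other AP-1 and related factors with 20 or more UMIs, 5 of 7 were at least 2-fold higher after IL-1β, 3 of 6 after IFN-γ and 6 of 7 after both, and 0 were at least 2-fold lower in any. Their median log2 ratios were 3.14, 0.97 and 2.65, where the median over all genes was 0.33, 0.30 and -0.01. A gene needed 20 UMIs in only 1 of the 2 libraries compared. Sparse genes such as Atf3 therefore entered through the library where they were high. Counts and medians of this and the later lists depend partly on that filter and are descriptions only. In α-like cells the counts were 6 of 8, 1 of 5 and 7 of 8, where 9.78%, 6.49% and 10.8% of all genes were higher. The number of factors counted shifted with the library here for the same reason. In δ-like cells the counts were 5 of 6, 0 of 4 and 7 of 7, where 12%, 5.4% and 15.1% of all genes were higher. Atf3 had 0 UMIs in untreated δ-like cells, so it could enter only through a treated library. No conclusion is drawn from these counts. Fosl2, an AP-1 member that accumulates later than Fos, measured 5.09 CPM untreated, 50.3 after IL-1β, 5.20 after IFN-γ and 32.0 after both, an order like that of Ier3. Atf3, a stress-induced partner of Jun, measured 0.749, 6.61, 3.66 and 29.5, so the combination was 39.3-fold (23.6 to 70.9) above untreated. Maff, a small Maf protein, measured 3.64, 38.7, 7.38 and 33.0. In the combined library Mafk, another small Maf protein, was 5.39-fold above untreated, while Fos was at 0.615 and Fosb at 1.01.

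Of zinc-finger and nuclear receptor factors, 4 of 6 were at least 2-fold higher after IL-1β, 2 of 6 after IFN-γ and 4 of 7 after both, and 2 were at least 2-fold lower after both (median log2 ratios 1.13, 0.81 and 1.27). Klf6, a zinc-finger factor of the acute response, measured 10.7 CPM untreated, 36.6 after IL-1β, 18.8 after IFN-γ and 73.6 after both. Nr4a2, a calcium-responsive nuclear receptor, was lower after both (1.35 against 4.99 untreated), the direction seen for Fos and Egr1. Among other immediate early transcripts, 10 of 20 were higher after IL-1β, 2 of 20 after IFN-γ and 8 of 20 after both, and 1, Sgk1, was lower after both (medians 0.94, 0.29 and 0.48). Gadd45b, an NF-κB target that restrains JNK signaling, measured 5.89, 79.5, 11.0 and 128. Nfkbiz, an atypical IκB, measured 14.2, 193, 38.6 and 169. Of the MAP kinase phosphatases, which switch off the kinases that induce these genes, 5 of 7 were higher after IL-1β, 0 of 7 after IFN-γ and 4 of 7 after both, and 1 was lower after both (medians 1.11, 0.06 and 1.51). Dusp4 among them measured 1.55, 8.47, 1.62 and 12.8 CPM. Upstream kinases and factors were at least 2-fold higher in 6 of 17, 1 of 17 and 4 of 17 (medians 0.83, 0.42 and 0.38), of which the 1 of 17 after IFN-γ is close to the 5.71% of all genes. They were led by Map3k8, a kinase between IκB kinase and ERK, at 0.998, 5.58, 2.04 and 7.12. Serum response factor itself (Srf) measured 11.2, 14.3, 13.4 and 16.2, under 2-fold in all 3. Reference genes were past 2-fold in 0 of 8 in each comparison (medians 0.35, 0.10 and 0.37), though Actb reached 1.84-fold after both.

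Known cytokine targets followed the labels of the libraries. Nfkbia, an NF-κB target, measured 48.7 CPM untreated, 481 after IL-1β, 50.1 after IFN-γ and 622 after both. Irf1, an IFN-γ target, measured 19.8, 40.8, 206 and 329. Nos2, which encodes the inducible nitric oxide synthase, measured 0.0499 (1 UMI), 140, 2.39 and 641. These genes were picked for their known response in these libraries and are a check of labels only. In the IL-1β library, 75.9% (70.4 to 80.9) of thinned β-like cells with Ier3 also held Nfkbia, against 67.8% (64.4 to 71.0) of those without.

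Heat shock transcripts, a sign of stress in handling or culture, moved with the cytokine libraries. Hspa1a measured 83.3 CPM in untreated β-like cells, 281 after IL-1β, 204 after IFN-γ and 276 after both. Of 12 heat shock and handling genes, 8 were at least 2-fold higher after IL-1β, 5 after IFN-γ and 8 after both (medians 1.42, 0.82 and 1.44), where 16.4%, 5.71% and 11.7% of all genes were, with Hspa1b at 29.9, 168, 98.0 and 150 and Dnajb1 at 21.5, 82.3, 50.4 and 87.0. Their part in the levels of the 9 genes was examined by setting cells with at least 10 Hspa1a UMIs per 10000 apart, which were 19 of 1185 β-like cells untreated, 99 of 1138 after IL-1β, 80 of 1287 after IFN-γ and 80 of 1267 after both. The share was 1.60% untreated and 6.31% after both in β-like cells, against 30% after both in α-like and 37.1% in δ-like cells.

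In β-like cells Jun was more than 2-fold higher in Hspa1a-high cells in all 4 libraries. It measured 920 CPM in Hspa1a-high and 119 in the remaining untreated β-like cells, 893 and 157 after IL-1β, 644 and 213 after IFN-γ, and 710 and 319 after both. The ratio of high to low cells was 7.76 (6.67 to 8.98), 5.70 (5.17 to 6.28), 3.02 (2.73 to 3.33) and 2.22 (2.04 to 2.42). In α-like cells it was 3.15 (1.49 to 5.89, 2 high cells) untreated, 2.49 (1.98 to 3.10) after IL-1β, 1.09 (0.728 to 1.58) after IFN-γ and 1.61 (1.44 to 1.81) after both. In δ-like cells, with 0 high cells untreated, it was 3.64 (2.81 to 4.66) after IL-1β, 1.59 (1.22 to 2.03) after IFN-γ and 2.03 (1.74 to 2.36) after both. Among Hspa1a-high β-like cells, the order of the libraries for Jun was not that of all cells, with the untreated library the highest, though its value and the IL-1β value had overlapping intervals (ratio 0.971, 0.825 to 1.15). Hspa1a itself measured 6211 CPM in the high β-like cells untreated, 3598 after IL-1β, 3606 after IFN-γ and 2712 after both. The high groups were thus not alike, so their Jun order and ratios do not compare like cells across libraries. Ier3 went the other way after IL-1β, at 18.1 CPM in Hspa1a-high and 107 in low cells, a ratio of 0.169 (0.0871 to 0.297), and after IFN-γ it was 34.4 and 5.85. The Ier3 ratio was 1.86 (0.380 to 5.55, 3 UMIs in high cells) untreated and 1.18 (0.825 to 1.64) after both, with intervals that include 1. Egr1 measured 14.1 (3 UMIs) and 74.4 untreated and 30.3 and 182 after IFN-γ, so it was lower in Hspa1a-high cells there. Its ratio was 0.787 (0.602 to 1.01) after IL-1β and 0.982 (0.698 to 1.35) after both, where the intervals include 1. Fos showed ratios of 1.67 (0.861 to 2.94) untreated, 1.48 after IL-1β, 0.809 after IFN-γ and 2.56 (1.82 to 3.53) after both.

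**Figure D4:**
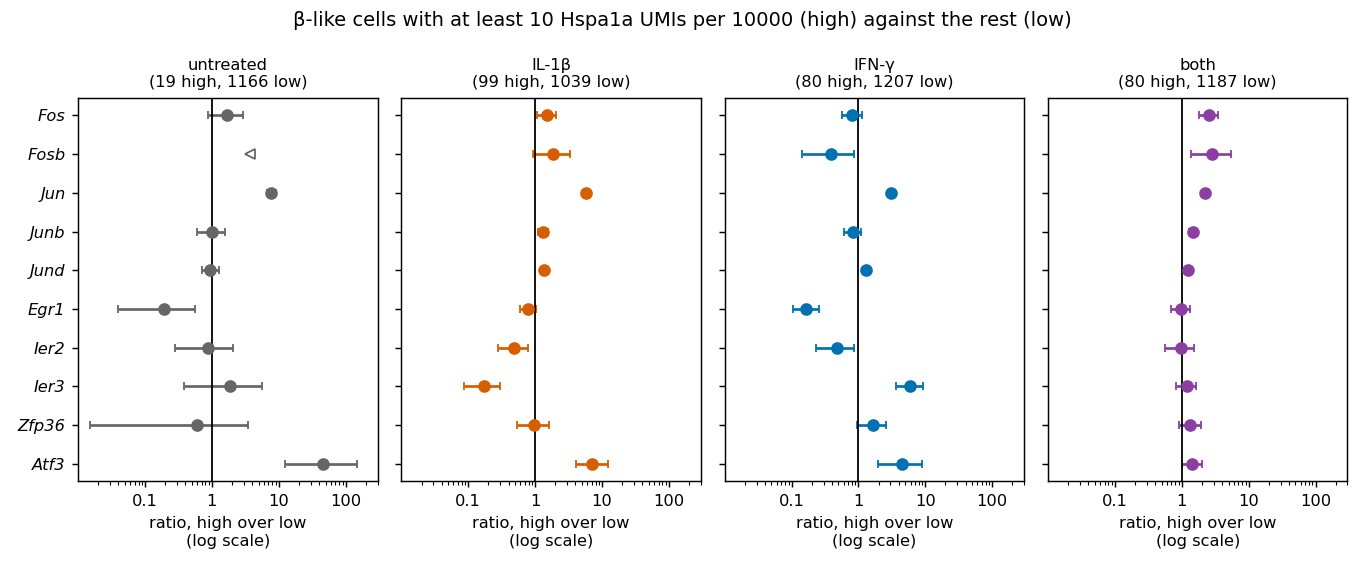
Ratio of the level in β-like cells high in Hspa1a to that in the remaining β-like cells (log axis) for the 9 genes and Atf3, with 1 panel per library and exact 95% intervals. The open triangle is an upper bound, where the Hspa1a-high cells had 0 UMIs. Jun lies above 2 in all 4 panels, from 7.76 untreated to 2.22 after both. The high cells differ in their Hspa1a level between panels.

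Without the Hspa1a-high cells, the cytokine ratios of the 9 genes in β-like cells hardly moved for most members. Ier3 after IL-1β was 14.2-fold (11.9 to 16.9), Fosb after IFN-γ 4.50-fold (3.55 to 5.74), Egr1 after IFN-γ 2.45-fold, and after both Jun was 2.69-fold (2.56 to 2.83) and Fos 0.569 (0.493 to 0.655). Jun after IL-1β fell from 1.63 to 1.32, and Ier2 after IL-1β crossed the rule of size at 2.01. Of the 27 ratios past 2-fold in β-like, α-like and δ-like cells, 26 stayed past it, the exception being Ier2 in δ-like cells after both cytokines. Hspa1a itself still differed among the remaining β-like cells, at 17.5 CPM untreated, 37.5 after IL-1β, 20.5 after IFN-γ and 127 after both. It also differed among the remaining α-like and δ-like cells, as given above.

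Cells outside the filters showed which values rest on them. β-like cells over the mitochondrial limit numbered 338, 174, 224 and 71, and those over the gene limit 641, 43, 137 and 112, so the gene limit removed far more untreated cells. In the cells over the gene limit Ier3 measured 11.5, 128, 9.96 and 60.0 CPM and Fos 34.8, 61.9, 68.3 and 18.8, the order of the kept cells in both genes. In cells over the mitochondrial limit Ier3 measured 6.61, 89.7, 4.98 and 11.9, where the combined value was nearer to untreated than in kept cells, and Fos measured 44.6, 36.3, 47.3 and 38.8, with no low value in the combination. These 2 combined values rest on 4 and 13 UMIs.

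Across the 13 library and class pairs with at least 50 cells (β-like, α-like and δ-like cells in 4 libraries and PP-like cells after IFN-γ), the log2 levels of some members ran together. Pearson correlations were highest at 0.902 for Egr1 and Ier2, 0.864 for Egr1 and Fosb, 0.854 for Ier3 and Junb, 0.849 for Jun and Jund, 0.833 for Jun and Zfp36, 0.829 for Egr1 and Fos, and 0.828 for Junb and Zfp36. They were lowest for Fos with Ier3 (0.0838) and Fos with Junb (0.1004). The 13 points share 4 libraries, and depth and class run through all of them, so these values are a description. Over the 7703 genes searched, the most alike were Elp4, Cluap1 and Msh3 for Fos (0.941, 0.920, 0.916), Pcnx, Fam216a and Cdadc1 for Fosb (from 0.910), and Tmtc1, Znhit6 and Tpst1 for Jun (from 0.946). For Junb they were Map1s, Neurl1a and Rhoc (from 0.953), for Jund Cfl1, Znhit6 and 2310057M21Rik (from 0.955), and for Egr1 Tox, Zfp612 and Clcn5 (from 0.957). For Ier2 they were Capsl, Stxbp5l and Bex1 (from 0.967), for Ier3 Vps26a, Galnt7 and Tmem176b (from 0.926), and for Zfp36 Slbp, Psma3 and Rbm18 (from 0.954).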

How the data were processed

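The deposited matrices hold raw UMI counts that the authors made with Cell Ranger against mm10, per the submitters' processing notes, without normalization. Their headers give software version 3.0.0. The reagent kit is version 3 in the study's methods and version 2 in the labels. The libraries drew on a common pool of islets from male C57BL6/J mice. No column of another series was present (0).

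The tools were matplotlib 3.10.9, pandas 2.3.3, scipy 1.17.1 and numpy 2.4.6 in Python 3.11.15. Cells were required to hold between 200 and 4000 genes and no more than 12% mitochondrial UMIs. A cell was β-like with at least 5% of its UMIs from insulin genes, α-like with 2% from Gcg, δ-like with 1% from Sst and PP-like with 10% from Ppy. Cells passing more than 1 limit were mixed-hormone (260) and left out. Non-endocrine cells needed at least 1 in 3 of a class's markers, and more than of any other class, and ductal-like cells 5. The Ppy and ductal limits were set after seeing marker counts. Unnamed cells (269) were left out. No doublet caller was run. The members and lists were chosen with earlier results of these data known.

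Levels have exact Poisson intervals, shares exact binomial (Clopper-Pearson) intervals, and ratios exact conditional binomial intervals, all at 95% and for counting error only. Cells are not replicates, so no test between conditions was made. A gene entered an all-gene share with 20 or more UMIs in 1 of the 2 libraries compared. All 9 members are named. From each other list, genes are named where the β-like ratio and its interval were past 2-fold, up to the 6 largest per list, besides heat shock, reference and benchmark genes needed beside a result. Not every benchmark gene is reported here. Nr4a2, Dusp4 and Map3k8 meet this rule, and Srf was named after its values were seen. The 3 most alike genes per member were ranked by Pearson correlation of log2(CPM + 1), among genes reaching 10 CPM. The intervals were run on simulated counts drawn with Poisson error only, the error they assume. That run cannot show how they hold for spread among cells or between preparations.

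Alternatives were thinning to 4000 UMIs, no upper limit on detected genes, 20% as the mitochondrial limit, totals without hormone genes, the unweighted mean over cells, a stricter hormone rule, leaving out Hspa1a-high cells, median-of-ratios size factors and no minimum for the all-gene shares. Leaving hormone genes out of the δ-like against β-like ratios was chosen after seeing the data.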

Additional observations from a re-analysis of the deposited data

Results flagged for a closer look

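Junb had ratios on opposite sides of 1 in different classes. After IL-1β its ratio to untreated was 3.18 in α-like and 2.34 in PP-like cells, but 0.322 in mesenchymal-like and 0.464 in ductal-like cells. The PP-like ratio was under 2-fold with 3 of the alternatives, down to 1.67 with size factors, and the ductal-like ratio was 0.616 with no upper gene limit. After both cytokines it was 2.13 in β-like, 6.25 in α-like, 2.51 in δ-like and 4.16 in PP-like cells, but 0.261 in mesenchymal-like cells. After IFN-γ, Ier3 was 4.60-fold in PP-like cells, 0.334 in endothelial-like and 0.450 in mesenchymal-like cells. The difference was not tested in any of these cases, since each class is a sum over 1 library. The untreated mesenchymal-like values rest on 12 cells, and the ductal-like values on 17 untreated and 16 IL-1β cells.

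Among β-like cells over the mitochondrial limit, Jund was 2.58-fold the untreated level after IL-1β and 2.50-fold after IFN-γ, against 1.52 and 1.22 in the kept cells. Ier3 was 13.6-fold after IL-1β and Jun 2.74-fold after both. The median mitochondrial share of these cells was 29.4% untreated, 17.0% after IL-1β, 15.6% after IFN-γ and 20.4% after both. Jund in them was 126 CPM untreated, against 242 in kept cells, 325 after IL-1β against 369, and 315 after IFN-γ against 296. The part of the mitochondrial share in the ratios was not tested. In β-like cells over the gene limit, Ier2 was 2.77-fold and Ier3 11.1-fold after IL-1β, and Fosb was 4.57-fold after IFN-γ. After both cytokines Jun was 2.84-fold, Ier3 5.20-fold and Zfp36 2.93-fold there. The untreated cells over the gene limit number 641, against 43 after IL-1β, 137 after IFN-γ and 112 after both.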

How the results depend on the processing

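Of the 27 ratios of members past 2-fold in β-like, α-like and δ-like cells, 27 kept their direction under each of the 8 alternatives that change a ratio, and 22 (hormone genes left out) to 27 (thinned) stayed past 2-fold. In β-like cells, thinning gave a median log2 ratio of 1.10 after IL-1β and 5 members at least 2-fold higher, where the all-gene median was 0.36. Without hormone genes in the totals the medians were 0.51 after IL-1β, 0.56 after IFN-γ and 0.48 after both, and 1 member was higher after IFN-γ. The all-gene median was then -0.12, -0.03 and -0.25. The unweighted mean over cells gave 0.71 after IL-1β and 0.61 after IFN-γ. Size factors gave 0.58 after IL-1β and 0.58 after IFN-γ, and 1 member higher after IFN-γ. The cause was not tested. Ratios of 2 sparse classes reversed: Ier2 in ductal-like cells after both cytokines was 1.09 with no upper gene limit, and Jund in acinar-like cells after IL-1β was 0.638 as an unweighted mean over cells. Counting every gene with a UMI in both libraries, 9.83% of all β-like genes were at least 2-fold higher after IFN-γ and 3.36% lower. No paired analysis was possible because each condition has 1 library, and leaving out a replicate was not possible for the same reason.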
